A study of Homo sapiens with 24 samples.

Results

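The G2 and mitosis genes described here are 48 genes that were listed by name for their part in the passage from G2 into and through cell division, out of 60609 gene rows in the expression table. They encode cyclins and their kinase, mitotic kinases, the passenger complex, checkpoint and kinetochore proteins, kinesins, cytokinesis and anaphase factors, and 1 transcription factor, 10 roles in all. The list names genes and uses no measured value, but it was drawn up with earlier results of these data known. All 48 were found once by symbol and all 48 passed the filter on low values, which kept the 16062 genes that reached 1 TPM in 3 or more libraries. TPM is a transcript level corrected for gene length and scaled to a fixed library total.

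The cells were A549, an established human lung adenocarcinoma line, profiled by sequencing of polyadenylated RNA. For 48 h they carried either siRNAs against BOP1, a factor needed to mature the large ribosomal subunit (siBOP1), or an siRNA against luciferase, which these cells do not make (siFLuc). They were then mock treated or given interferon beta at 1000 U/mL (IFN), and harvested after 8 h or 12 h. The 8 groups were thus siFLuc mock, siFLuc IFN, siBOP1 mock and siBOP1 IFN at 8 h, and the same 4 at 12 h, with 3 libraries each. All 8 groups received an siRNA, so none shows untransfected cells. The siRNA against BOP1 was a pool, and knockdown was partial: BOP1 stood at 18.0, 18.4 and 19.5 TPM in the siBOP1 mock libraries at 8 h and at 66.1, 55.9 and 77.3 TPM in those of siFLuc. At 12 h the mock values were 15.6, 15.4 and 13.7 TPM with siBOP1 and 51.9, 59.1 and 78.8 TPM with siFLuc. Labels do not say whether the libraries of a group came from separate cultures, so the p-values below measure the spread between these libraries, which may be technical.

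Cells enter mitosis when CDK1 binds cyclin B and CDC25 phosphatases remove the phosphates that hold it inactive. They leave mitosis when the anaphase-promoting complex marks cyclin B and securin for destruction. Transcripts of these genes rise together in G2 and fall after division, under FOXM1, B-MYB and NF-Y as activators and the DREAM complex as repressor, so in a population of cycling cells their level follows the share of cells in G2 and mitosis as well as the output per cell. In bulk RNA, fewer cells in a phase and less RNA per cell cannot be told apart. Type I interferon is known to slow the division of many epithelial and tumour lines.

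Columns of the table end in the numbers 1, 2 or 4, and the libraries are called by these numbers. Between 13844 and 14509 genes reached 1 TPM in a library, and mitochondrial genes held 6.86% to 15.9% of TPM. The lowest of these was siFLuc mock 12 h number 4, where the other libraries of its group had 15.01% and 14.45%. Its 10 highest genes held 9.496% of TPM (15.01% and 14.58% in the others), its correlation with number 2 was 0.961, the lowest between libraries of a group, and its summed level of the 48 genes was the highest of all. For some results that rest on this library, values are given with and without it. Others in siFLuc cells at 12 h are given with it alone. Without it the IFN change there was -0.46 rather than -0.68 for CDC20, and -0.45 rather than -0.63 for PLK1, on the log2 scale. The part of this library's mitochondrial share was not tested. Of 8 markers of A549 and lung epithelium all 8 were above 0 in every library, with KRT8 at 2086 to 3803 TPM and EPCAM, the lowest, at 1.92 to 5.48 TPM. Of 12 markers of other cell types, CD3E was at 0 in all 24 libraries and PTPRC, which marks leukocytes, never exceeded 0.021 TPM. The sum of those 12 was 52.1 to 74.9 TPM in mock libraries and 179 to 422 TPM with IFN, of which CD68 (38.5 to 402 TPM over the 24 libraries) was the largest part. COL1A1, a collagen of fibroblasts, was at 5.37 to 19.3 TPM and TP63, a marker of basal cells, at 0.508 to 2.81 TPM. The part of CD68 in the results below was not tested.

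The 48 genes together held 1248 to 2773 TPM in a library, or 0.125% to 0.277% of the total. In siFLuc cells their sum was 1930 ± 555 TPM (SD, n = 3) in mock and 1711 ± 392 TPM (SD, n = 3) with IFN at 8 h, and 2372 ± 363 against 1752 ± 212 TPM (SD, n = 3 each) at 12 h. In siBOP1 cells it was 1905 ± 382 against 1532 ± 337 TPM (SD, n = 3 each) at 8 h and 2132 ± 315 against 1534 ± 230 TPM (SD, n = 3 each) at 12 h. The IFN mean was the lower in all 4 pairs of groups. At 12 h the ranges of mock and IFN libraries did not overlap in either siRNA, whereas at 8 h they overlapped in both. The library numbered 4 held the highest sum of its group in 7 of 8 groups and the lowest in siBOP1 mock 12 h, where the libraries numbered 1, 2 and 4 stood at 2413, 2191 and 1792 TPM. The plot of summed levels by library shows both the lower IFN groups and this exception.

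**Figure D1:**
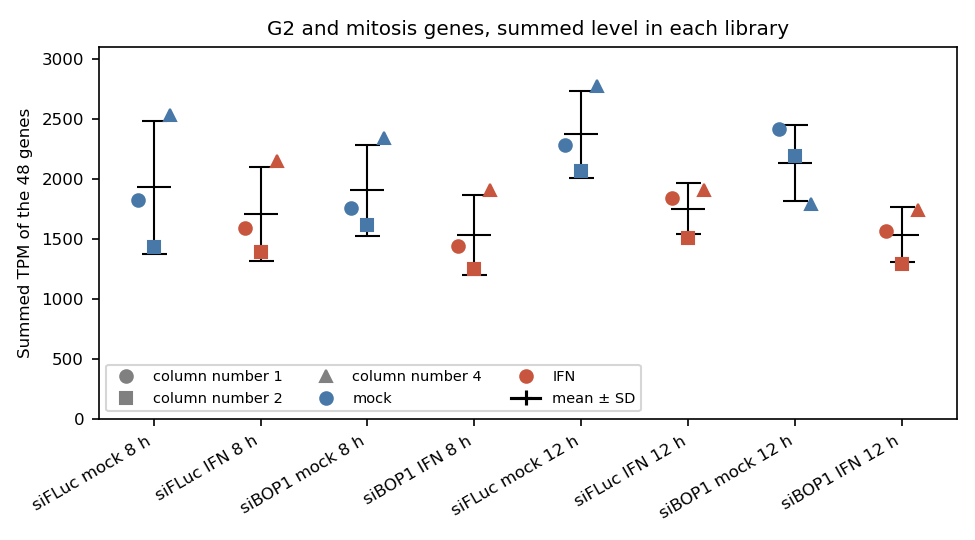
Summed TPM of the 48 G2 and mitosis genes in each of the 24 libraries (y axis) by group (x axis), with marker shape for the column number, colour for treatment, and the horizontal line and bar for mean ± SD of 3 libraries. The IFN means are below the mock means in all 4 pairs, and the library numbered 4 is highest in 7 of 8 groups.

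Levels per length spanned a wide range. CDC25B, a phosphatase that activates CDK1, was the highest at a mean of 132 TPM over 24 libraries, followed by the checkpoint protein BUB3 (126 TPM) and cyclin B1, CCNB1 (121 TPM). The lowest were CDC25C (5.92 TPM), the kinetochore motor CENPE (6.69 TPM) and NDC80 (7.94 TPM), a subunit of the complex that binds spindle microtubules. KIF4A and PTTG1 have near-identical copies elsewhere in the genome (KIF4B, PTTG2), and how shared reads were assigned is not given in the sources used here, so their values are uncertain to that extent.

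Promoters of this class of genes are known for a pair of elements, the CHR (cell cycle genes homology region, TTTGAA), which the DREAM and MYB-MuvB complexes bind, and the CCAAT box (CCAAT), which NF-Y binds. RefSeq promoter windows on GRCh38.p14, from 250 bases before to 50 after an annotated start, were at hand for 40 of the 48 genes (52 windows), and 8 genes had none (AURKA, CDCA2, FOXM1, BUB3, UBE2C, BIRC5, TTK and TPX2). TTTGAA on either strand was found in 33 of the 52 windows (63.5%), against 15.2% of all 35116 windows of this length. Within the 50 bases before the start it was found in 16 (30.8%), against 2.28%. CCAAT on either strand was found in 39 of 52 windows (75.0%) against 34.6%, and in 13 (25.0%) against 6.89% within those 50 bases. Matches of both motifs share 1 base in CDCA8 and in MKI67. A match is a description of letters and not evidence of binding.

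**Figure D2:**
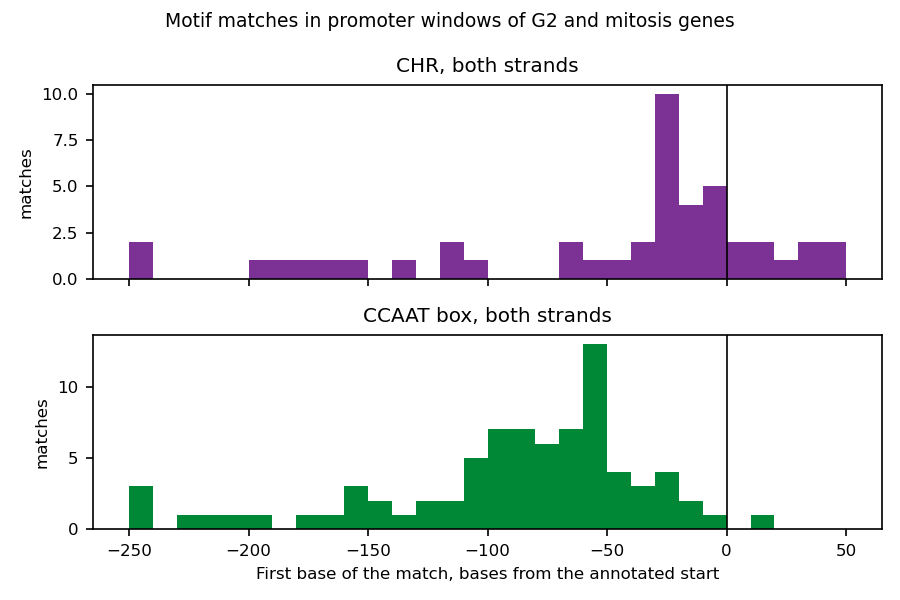
Number of matches (y axes) of TTTGAA (upper panel) and CCAAT (lower panel), both strands, by the position of the first base of the match relative to the annotated start (x axis, bases) in the 52 RefSeq windows of 40 genes. TTTGAA matches crowd within the 50 bases before the start, and CCAAT matches lie mostly further out.

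Promoters of 5 genes, chosen after their calls were seen, are shown because they set sequence beside response: TOP2A, KIF11, CENPF and CENPE were called lower with IFN in at least 1 comparison described below, and ESPL1 was not. Each runs 5′ to 3′ from 250 bases before the RefSeq start and stops before any GENCODE 29 exon of the gene, and capitals mark TTTGAA or CCAAT on either strand (TTCAAA and ATTGG on the opposite strand). The windows are chr10:92592880-92593129 on the plus strand for KIF11, chr12:53268049-53268298 on the plus strand for ESPL1, chr17:40417951-40418146 on the minus strand for TOP2A, chr1:214602945-214603194 on the plus strand for CENPF and chr4:103198410-103198593 on the minus strand for CENPE.
KIF11: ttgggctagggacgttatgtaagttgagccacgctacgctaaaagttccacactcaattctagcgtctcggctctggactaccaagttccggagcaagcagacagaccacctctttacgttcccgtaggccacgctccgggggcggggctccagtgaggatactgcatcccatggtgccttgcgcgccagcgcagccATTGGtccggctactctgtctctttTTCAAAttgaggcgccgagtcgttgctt
ESPL1: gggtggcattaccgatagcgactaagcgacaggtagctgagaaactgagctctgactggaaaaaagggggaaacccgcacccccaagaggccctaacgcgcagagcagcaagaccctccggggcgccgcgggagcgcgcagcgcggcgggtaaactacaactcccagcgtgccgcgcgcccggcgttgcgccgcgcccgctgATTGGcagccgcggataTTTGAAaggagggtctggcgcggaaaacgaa
TOP2A: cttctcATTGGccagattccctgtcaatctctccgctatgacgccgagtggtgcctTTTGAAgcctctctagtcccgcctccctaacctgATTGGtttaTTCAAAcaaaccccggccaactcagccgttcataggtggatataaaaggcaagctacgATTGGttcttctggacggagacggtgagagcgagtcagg
CENPF: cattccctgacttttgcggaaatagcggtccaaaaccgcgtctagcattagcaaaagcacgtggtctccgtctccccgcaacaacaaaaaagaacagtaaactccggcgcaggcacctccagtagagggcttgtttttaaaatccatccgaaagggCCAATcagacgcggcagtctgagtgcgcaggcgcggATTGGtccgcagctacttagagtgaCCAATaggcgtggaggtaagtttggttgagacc
CENPE: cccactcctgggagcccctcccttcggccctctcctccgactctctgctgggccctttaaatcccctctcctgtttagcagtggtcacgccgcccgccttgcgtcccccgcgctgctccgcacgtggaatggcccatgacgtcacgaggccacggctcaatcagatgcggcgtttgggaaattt
KIF11 and ESPL1 each hold 1 CHR match and 1 CCAAT match, with first bases at -28 and -53 from the start in KIF11 and at -31 and -48 in ESPL1. The CHR match of ESPL1 is on the strand shown, and that of KIF11 is on the opposite strand. In TOP2A both CHR matches lie further out, at -194 and -151. CENPF has 3 CCAAT matches in the bases shown and its CHR match 40 bases after the start, outside them. CENPE has neither motif in its window. Over the 40 genes, the 30 with a CHR match had a median of -0.45 for the mean IFN change on the log2 scale and the 10 without one -0.44, and the 34 with and 6 without a CCAAT match both had -0.45.

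The first comparison asked how IFN changed these genes in control and BOP1-depleted cells. In every comparison most of the 48 were lower with IFN, and none was called higher. Called means an adjusted p under 0.05 in limma, with the Benjamini-Hochberg adjustment over all 16062 genes, and changes are differences of log2(TPM + 1), which understate those of low genes. At 8 h the median change was -0.21 in siFLuc cells (42 of 48 below 0) and -0.41 in siBOP1 cells (45 of 48 below 0). At 12 h it was -0.54 (47 of 48) and -0.59 (45 of 48). Over all genes tested the medians were -0.09, -0.14, -0.06 and -0.08 in the same order. Leaving out 1 library moved the members' medians to between -0.42 and -0.02 (siFLuc) and between -0.61 and -0.24 (siBOP1) at 8 h, and at 12 h to between -0.63 and -0.43 and between -0.72 and -0.47.

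Few of these changes passed the test when libraries were treated as unpaired. In siFLuc cells at 8 h 0 of 48 were called (1 at an unadjusted p under 0.05), where 5.07% of all genes tested were called lower. In siBOP1 cells at 8 h 3 were called lower (BUB1B, CENPE and INCENP) against 9.11% of all genes. At 12 h 4 were called lower in siFLuc cells (TOP2A, INCENP, KIF11 and CDCA8) against 6.43%, and 8 in siBOP1 cells (TOP2A, CDC25C, CENPA, CENPF, BUB1B, PLK1, KIF23 and CENPE) against 7.58%. The 3 of 48 are 6.25% and the 4 of 48 are 8.33%, near the background, while the 8 of 48 are 16.7%. TOP2A was the 1 gene called with both siRNAs at 12 h. Leaving out single libraries moved the counts to between 0 and 7 in siBOP1 cells at 8 h (0 without siBOP1 mock number 4, 7 without siBOP1 IFN number 4), between 0 and 2 in siFLuc cells at 12 h (0 without siFLuc mock number 4) and between 1 and 19 in siBOP1 cells at 12 h (1 without siBOP1 mock number 2, 19 without siBOP1 mock number 4). Of the single calls, that of TOP2A in siBOP1 cells at 12 h held in all 6 fits that left out a library of the groups compared, and each of the others was lost in 2 to 6 of 6.

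With the column number as a block, which compares libraries of the same number, more were called lower in each comparison and again none higher. In siFLuc cells at 8 h 4 of 48 were called (BIRC5, NEK2, SPC25 and KIF11), a smaller share than the 12.7% of all genes called lower. In siBOP1 cells at 8 h 24 were called against 20.4%. At 12 h 31 were called in siFLuc cells against 15.8%, and 34 in siBOP1 cells against 16.6%. Of the 31 and the 34, 27 were the same genes, 87.1% of the former and 79.4% of the latter. Sets this large out of 48 share many genes in any case, and the overlap over all genes tested was not counted. The count in siBOP1 cells at 8 h depended on scaling: with median-of-ratios rescaling, which moved the median of all genes there from -0.14 to -0.01, 7 were called. The members' median stayed lower than that of all genes by 0.25 there, against 0.26 without rescaling. Leaving out siBOP1 mock number 2 left 5 at 8 h. At 12 h the blocked counts were 20 in siFLuc cells without siFLuc mock number 4 and 20 in siBOP1 cells without siBOP1 mock number 2, and came to 44 without siBOP1 mock number 4. The map of changes by gene shows which genes were called with and without the block.

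**Figure D3:**
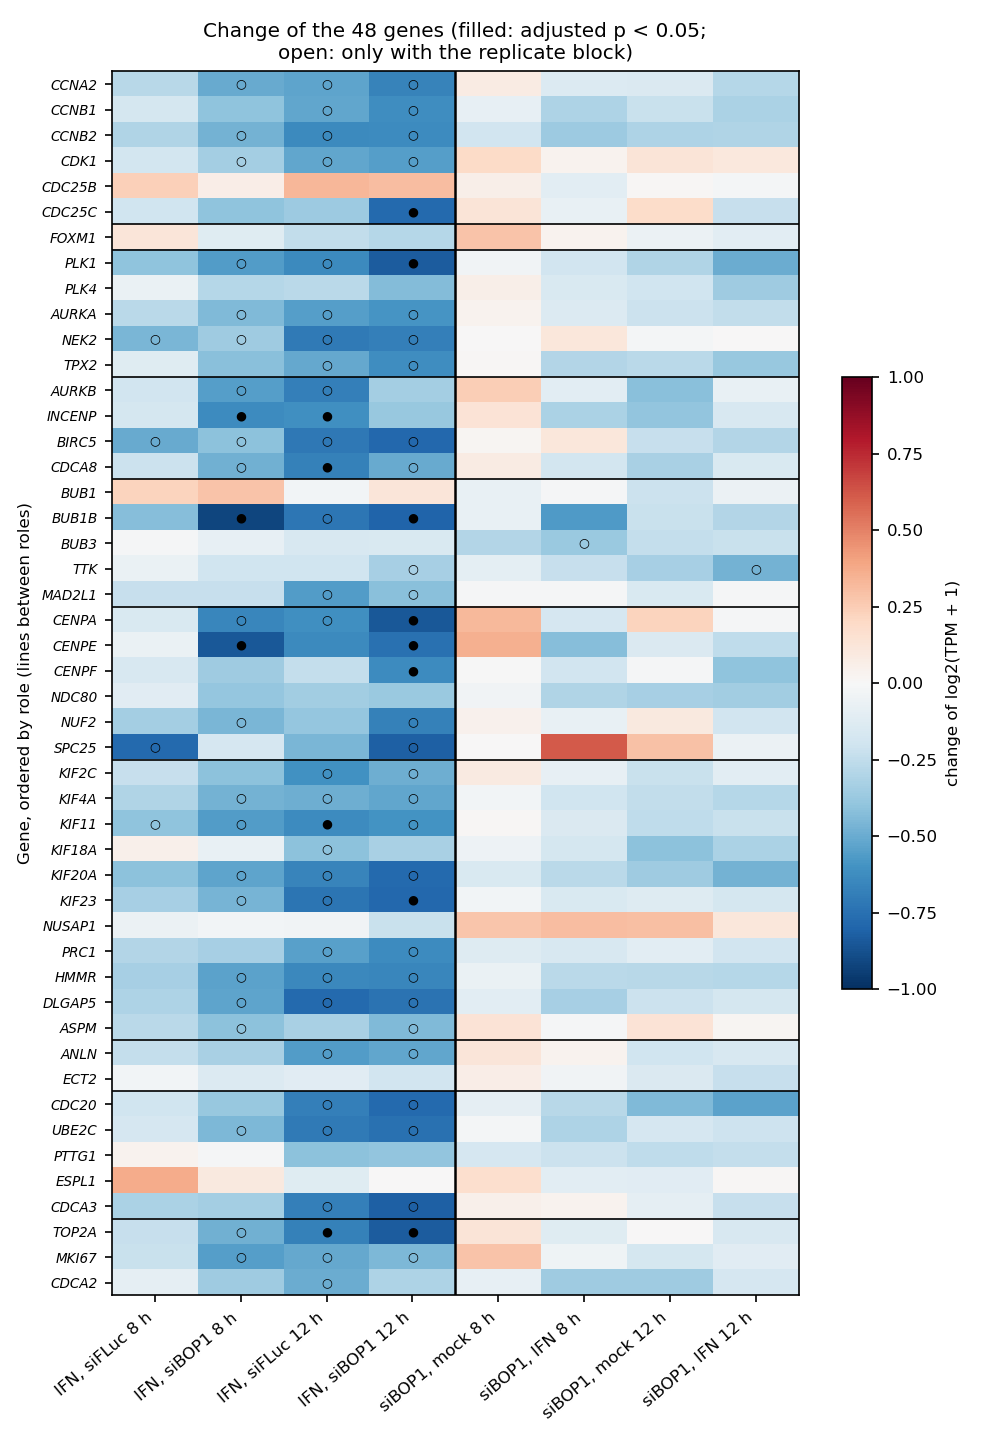
Change of log2(TPM + 1) of the 48 genes (rows, ordered by role) in 4 IFN comparisons and 4 siBOP1 comparisons (columns), with filled circles for limma adjusted p under 0.05 and open circles where that held only with the replicate block. Blue (lower) fills most of the IFN columns, with 6 of the 48 above 0 in siFLuc cells at 8 h. CDC25B, BUB1 and ESPL1 had mean IFN changes above 0. The siBOP1 columns hold 2 open circles (BUB3 and TTK).

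Among the cyclins, CDK1 and the phosphatases that activate it (6 genes), 1 was called lower without the block, CDC25C in siBOP1 cells at 12 h, and 0, 3, 4 and 5 with it in siFLuc and siBOP1 cells at 8 h and siFLuc and siBOP1 cells at 12 h. Coordinates of genes are those of GENCODE 29 on GRCh38, and IDs are those of the expression table. Of the 48 IDs 8 have the same version in GENCODE 29. CCNB1 (ENSG00000134057.15, chromosome 5, 69167010 to 69178245, plus strand) encodes cyclin B1, the partner that brings CDK1 to mitosis. In siFLuc cells it was at 130.3, 101 and 183 TPM in mock and 105, 100.3 and 158 TPM with IFN at 8 h in the libraries numbered 1, 2 and 4, and at 149.98, 141 and 174 against 119.7, 95.8 and 107 TPM at 12 h. In siBOP1 cells it was at 116, 115 and 153 against 90.7, 71.5 and 134 TPM at 8 h and 159, 152 and 95.4 against 92.8, 66.5 and 102 TPM at 12 h. Mock and IFN libraries overlapped at 8 h, did not overlap in siFLuc cells at 12 h, and overlapped in siBOP1 cells at 12 h through mock number 4. At 12 h the change was -0.52 in siFLuc and -0.62 in siBOP1 cells (SE 0.25 for both). In limma the adjusted p was 0.182 and 0.0999, and 0.0246 and 0.00885 with the block.

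CDK1 (ENSG00000170312.16, chromosome 10, 60778331 to 60794852, plus strand), the kinase itself, was at 62.3, 45.4 and 92.1 TPM in siFLuc mock and 49.3, 45.9 and 78.1 TPM in siFLuc IFN libraries at 8 h, and 66.3, 61.6 and 82.4 against 52.1, 44.3 and 48.2 TPM at 12 h. With siBOP1 the values were 72.2, 62.3 and 87.2 against 47.2, 43.4 and 93.2 TPM at 8 h and 81.1, 72.9 and 75.1 against 57.6, 42.8 and 56.4 TPM at 12 h. At 12 h all IFN libraries lay below all mock libraries with both siRNAs. At 8 h the IFN library numbered 4 lay above the mock libraries numbered 1 and 2, and in siBOP1 cells above mock number 4 as well. The 12 h changes were -0.52 and -0.55 (SE 0.26 each), not called by limma without the block (adjusted p 0.199 and 0.169) and called with it (0.00281 and 0.00188). CCNA2 (ENSG00000145386.10, chromosome 4, 121816444 to 121823933, minus strand), the cyclin of S phase and G2, was at 22.7, 17.0 and 36.8 against 18.2, 16.4 and 25.98 TPM in siFLuc mock and IFN libraries at 8 h and 30.7, 27.3 and 34.7 against 25.8, 17.1 and 21.0 TPM at 12 h. Its siBOP1 libraries had 24.6, 21.0 and 33.0 against 17.6, 13.6 and 23.9 TPM at 8 h and 34.0, 32.7 and 19.1 against 18.9, 13.8 and 19.1 TPM at 12 h. In siFLuc cells its mock and IFN ranges did not overlap at 12 h, and in siBOP1 cells the mock library numbered 4 lay level with the highest IFN library. Its changes at 12 h were -0.53 and -0.67 (SE 0.27 for both). In limma the adjusted p was 0.216 and 0.105 without the block and 0.0266 and 0.00677 with it.

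CCNB2, another B-type cyclin, changed by -0.64 and -0.63 at 12 h, called with the block alone (adjusted p 0.00202 and 0.00213). The phosphatases CDC25C and CDC25B had mean IFN changes of opposite sign (-0.44 and 0.24), and they were not tested against each other. CDC25C (ENSG00000158402.20, chromosome 5, 138285265 to 138338355, minus strand), which acts at mitotic entry, was at 8.39, 10.6 and 8.86 TPM in siBOP1 mock and 6.07, 3.73 and 5.31 TPM in siBOP1 IFN libraries at 12 h. The groups did not overlap, and it fell by 0.78 (SE 0.22, adjusted p 0.018 in limma). In siFLuc cells at 12 h it was at 8.37, 6.499 and 9.43 against 6.78, 5.13 and 6.17 TPM, a change of -0.37 that was not called (adjusted p 0.303). At 8 h the values were 4.88, 3.32 and 7.28 TPM in mock and 4.12, 3.85 and 4.58 TPM with IFN in siFLuc cells and 4.79, 4.89 and 7.03 TPM in mock and 4.24, 2.89 and 4.81 TPM with IFN in siBOP1 cells, with overlapping ranges. CDC25B had the highest mean IFN change of the 48, 0.24 on the log2 scale. At 12 h it was at 118, 112 and 179 TPM in siFLuc mock and 142, 145 and 229.8 TPM in siFLuc IFN libraries, and at 129, 134 and 139.6 against 146, 165 and 190.0 TPM in siBOP1 cells. At 8 h the values were 108, 84.1 and 120.5 against 129.8, 104 and 134 TPM with siFLuc and 101, 95.4 and 129 against 114, 117 and 108 TPM with siBOP1. Same-numbered IFN libraries were above mock in 11 of 12 pairs, the exception being number 4 of siBOP1 cells at 8 h, but the ranges overlapped in each comparison except that of siBOP1 cells at 12 h. None of its 4 changes was called, and the lowest limma adjusted p was 0.271 without the block and 0.0513 with it, both in siFLuc cells at 12 h.

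FOXM1 (ENSG00000111206.12, chromosome 12, 2857681 to 2877155, minus strand), the activator of many of the other members, was not called in any IFN comparison, with or without the block. In siFLuc cells it was at 26.2, 17.6 and 36.0 TPM in mock and 29.8, 19.5 and 37.3 TPM with IFN at 8 h and at 32.4, 29.1 and 50.2 TPM in mock and 28.6, 22.7 and 43.1 TPM with IFN at 12 h. With BOP1 depleted it was at 31.5, 25.97 and 37.5 TPM in mock and 28.6, 25.3 and 32.6 TPM with IFN at 8 h and at 33.7, 34.6 and 35.7 TPM in mock and 25.0, 23.0 and 39.0 TPM with IFN at 12 h. The ranges overlapped in all 4 comparisons, with changes of 0.12 and -0.12 at 8 h and -0.24 and -0.29 at 12 h (SE 0.27, lowest adjusted p 0.563 without and 0.13 with the block).

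Of the 5 mitotic kinases and kinase activators (PLK1, PLK4, AURKA, NEK2 and the AURKA activator TPX2), PLK1 was called lower without the block, in siBOP1 cells at 12 h. With it 1, 3, 4 and 4 were called lower in the 4 comparisons, the 4 at 12 h being all but PLK4, the kinase of centriole duplication. PLK1 (ENSG00000166851.15, chromosome 16, 23677656 to 23690367, plus strand) triggers entry and drives spindle and cytokinesis steps. In siFLuc cells PLK1 was at 47.6, 31.8 and 68.1 TPM in mock and 32.7, 27.8 and 48.3 TPM with IFN at 8 h and 60.7, 47.8 and 80.0 TPM in mock and 43.7, 35.5 and 39.1 TPM with IFN at 12 h. With siBOP1 it was at 42.2, 39.4 and 57.3 TPM in mock and 30.6, 23.9 and 39.7 TPM with IFN at 8 h and 58.5, 55.2 and 38.1 TPM in mock and 30.1, 22.5 and 31.0 TPM with IFN at 12 h. Mock and IFN ranges were apart at 12 h with both siRNAs and overlapped at 8 h. PLK1 fell by 0.83 (SE 0.26, adjusted p 0.0361 in limma) in siBOP1 cells at 12 h, and its change in siFLuc cells was -0.63 (adjusted p 0.12, and 0.0076 with the block). NEK2, a kinase of centrosome separation, was 1 of 3 genes called lower with the block in all 4 comparisons, beside BIRC5 and KIF11, with changes from -0.71 to -0.35. At 8 h its change was -0.18 in siFLuc cells without siFLuc IFN number 2 and -0.16 in siBOP1 cells without siBOP1 mock number 4. AURKA, the kinase of spindle pole maturation, had differences of -0.55 and -0.59 at 12 h, and TPX2 of -0.51 and -0.62, the former -0.31 without siFLuc mock number 4.

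All 4 genes of the chromosomal passenger complex, which corrects faulty attachments of chromosomes to the spindle, were called lower with the block in siBOP1 cells at 8 h and siFLuc cells at 12 h, against 1 in siFLuc cells at 8 h and 2 in siBOP1 cells at 12 h. BIRC5 (ENSG00000089685.15, chromosome 17, 78214186 to 78225636, plus strand) encodes survivin, the subunit that brings the complex to the centromere. In siFLuc cells BIRC5 stood at 48.0, 35.3 and 72.7 TPM in mock and 31.4, 25.2 and 53.0 TPM with IFN at 8 h and 53.4, 47.2 and 72.2 TPM in mock and 35.9, 28.9 and 38.0 TPM with IFN at 12 h. Under siBOP1 the gene was at 46.7, 39.6 and 69.6 TPM in mock and 35.6, 27.8 and 54.3 TPM with IFN at 8 h and 52.2, 44.5 and 48.3 TPM in mock and 32.1, 19.1 and 34.0 TPM with IFN at 12 h. The ranges were apart at 12 h and overlapped at 8 h, but the IFN library was below the mock library of its number in all 12 pairs. At 8 h the siFLuc and siBOP1 changes were -0.51 and -0.41, and at 12 h they were -0.72 and -0.79 (SE 0.30 each). None was called without the block (lowest limma adjusted p 0.0834), and all 4 were with it (adjusted p 0.00251, 0.0083, 8.47e-05 and 3.26e-05 in the same order). The 8 h changes were -0.24 without siFLuc mock number 4 and -0.18 without siBOP1 mock number 4.

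INCENP (ENSG00000149503.13, chromosome 11, 62123973 to 62153163, plus strand), the scaffold of the complex, was at 17.0, 11.5 and 16.1 TPM in mock and 14.2, 11.4 and 13.2 TPM with IFN at 8 h and 23.1, 16.7 and 22.1 TPM in mock and 13.7, 13.2 and 12.1 TPM with IFN at 12 h in siFLuc cells. The siBOP1 libraries had it at 14.8, 16.5 and 17.4 TPM in mock and 11.2, 9.02 and 10.3 TPM with IFN at 8 h and 17.0, 19.4 and 10.8 TPM in mock and 10.7, 15.3 and 9.25 TPM with IFN at 12 h. The ranges were apart in siBOP1 cells at 8 h and in siFLuc cells at 12 h and overlapped in the other comparisons. INCENP fell by 0.63 (SE 0.20, adjusted p 0.0332 in limma) and by 0.62 (adjusted p 0.0396) there. CDCA8 (ENSG00000134690.11, chromosome 1, 37692418 to 37709719, plus strand), or borealin, was at 18.3, 15.8 and 19.1 TPM in mock and 12.1, 9.06 and 11.1 TPM with IFN in siFLuc cells at 12 h, with separate ranges, and fell by 0.68 (SE 0.22, adjusted p 0.0448 in limma). AURKB, the kinase of the complex, was not called without the block, with changes from -0.68 to -0.19.

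The 5 spindle checkpoint genes, which delay anaphase until chromosomes are attached, ranged widely. BUB1B (ENSG00000156970.12, chromosome 15, 40161023 to 40221136, plus strand), which encodes the checkpoint inhibitor BUBR1, had the lowest mean IFN change of the 48, -0.72. In siFLuc cells BUB1B was at 19.3, 12.7 and 23.9 TPM in mock and 11.7, 12.0 and 16.2 TPM with IFN at 8 h and 23.1, 21.2 and 22.2 TPM in mock and 14.6, 10.9 and 14.0 TPM with IFN at 12 h. After BOP1 knockdown its level was 14.3, 16.9 and 20.7 TPM in mock and 8.15, 6.90 and 11.1 TPM with IFN at 8 h and 25.3, 20.2 and 13.1 TPM in mock and 10.2, 7.58 and 14.6 TPM with IFN at 12 h. The ranges were apart in siBOP1 cells at 8 h and siFLuc cells at 12 h, and in siBOP1 cells at 12 h they overlapped through number 4, the pair whose IFN library was above mock. BUB1B fell by 0.92 (SE 0.25, adjusted p 0.0142 in limma) and by 0.80 (adjusted p 0.0342) in siBOP1 cells at 8 h and 12 h, and its change in siFLuc cells at 12 h was -0.72 (adjusted p 0.0593, and 0.0128 with the block).

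BUB1, a checkpoint kinase closely related to BUB1B, was called in no comparison. It was at 15.7, 12.6 and 24.2 TPM in mock and 15.3, 17.1 and 30.1 TPM with IFN at 8 h and 21.5, 18.4 and 26.2 TPM in mock and 24.1, 19.6 and 20.6 TPM with IFN at 12 h with siFLuc. With siBOP1 it was at 15.9, 12.8 and 20.1 TPM in mock and 17.6, 18.3 and 23.8 TPM with IFN at 8 h and 24.9, 18.5 and 14.1 TPM in mock and 22.1, 17.5 and 22.1 TPM with IFN at 12 h. The ranges overlapped in all 4 comparisons. Its changes were 0.23, 0.29, -0.03 and 0.12 in siFLuc and siBOP1 cells at 8 h and at 12 h, with SE 0.25 and none called (lowest limma adjusted p 0.489). Of the rest, MAD2L1 was called lower with the block at 12 h with both siRNAs (-0.56 and -0.42, the latter -0.21 without siBOP1 IFN number 2), the kinase TTK in siBOP1 cells at 12 h (-0.33), and BUB3 in none (-0.16 to -0.01).

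Among the 6 centromere and kinetochore genes 0, 1, 0 and 3 were called lower without the block and 1, 3, 1 and 5 with it. CENPE (ENSG00000138778.12, chromosome 4, 103105806 to 103198409, minus strand), a kinesin that carries chromosomes to the spindle equator, was at 6.59, 10.2 and 9.72 TPM in mock and 4.27, 3.94 and 4.96 TPM with IFN in siBOP1 cells at 8 h and 13.1, 7.63 and 4.92 TPM in mock and 4.22, 3.95 and 4.90 TPM with IFN at 12 h. In siFLuc cells it was at 6.80, 4.89 and 8.39 TPM in mock and 6.57, 5.04 and 7.27 TPM with IFN at 8 h and 8.61, 6.97 and 11.6 TPM in mock and 5.36, 5.24 and 5.49 TPM with IFN at 12 h. In siBOP1 cells the ranges were apart at both times, at 12 h by a margin smaller than the spread in either group, and in siFLuc cells they were apart at 12 h. CENPE fell by 0.85 (SE 0.25, adjusted p 0.0225 in limma) and by 0.75 (adjusted p 0.0463) in siBOP1 cells, and its change in siFLuc cells at 12 h was -0.64 (adjusted p 0.0973, and 0.0543 with the block). The 12 h change with siBOP1 was -0.42 without siBOP1 mock number 1. Its call was lost in 5 of 6 fits that left out a library at 12 h and in 4 of 6 at 8 h.

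CENPA (ENSG00000115163.15, chromosome 2, 26764289 to 26801067, plus strand), the histone variant that marks the centromere, was at 19.2, 12.6 and 20.2 TPM in mock and 15.3, 12.1 and 18.6 TPM with IFN at 8 h and 19.5, 16.4 and 19.2 TPM in mock and 14.2, 8.73 and 12.6 TPM with IFN at 12 h in siFLuc cells. In siBOP1 cells it was at 23.1, 16.8 and 25.8 TPM in mock and 12.0, 11.5 and 17.4 TPM with IFN at 8 h and 24.3, 25.3 and 16.03 TPM in mock and 12.7, 8.33 and 14.2 TPM with IFN at 12 h. The siBOP1 ranges were apart at 12 h, and CENPA fell by 0.85 there (SE 0.24, adjusted p 0.0194 in limma). CENPF (ENSG00000117724.13, chromosome 1, 214603195 to 214664588, plus strand), a large protein of the outer kinetochore, was at 25.7, 24.8 and 24.8 TPM in mock and 30.8, 16.5 and 21.7 TPM with IFN at 8 h and 33.6, 26.4 and 37.9 TPM in mock and 27.4, 28.1 and 26.3 TPM with IFN at 12 h in siFLuc cells. The siBOP1 libraries had 27.0, 21.3 and 27.4 TPM in mock and 18.3, 17.6 and 22.6 TPM with IFN at 8 h and 35.9, 32.2 and 28.2 TPM in mock and 25.0, 18.1 and 18.5 TPM with IFN at 12 h. Its ranges too were apart in siBOP1 cells at 12 h, where it fell by 0.63 (SE 0.18, adjusted p 0.0207 in limma).

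SPC25, NDC80 and NUF2 are subunits of the NDC80 complex. SPC25 was at 8.94, 8.44 and 20.0 TPM in mock and 4.89, 4.80 and 10.5 TPM with IFN at 8 h and 12.0, 15.6 and 8.89 TPM in mock and 8.60, 8.57 and 7.92 TPM with IFN at 12 h in siFLuc cells. With BOP1 depleted it was at 9.59, 8.02 and 19.8 TPM in mock and 8.86, 9.98 and 11.9 TPM with IFN at 8 h and 15.5, 14.8 and 14.2 TPM in mock and 10.1, 5.03 and 9.79 TPM with IFN at 12 h. At 8 h the library numbered 4 was the highest of each group, and the changes were -0.78 in siFLuc and -0.17 in siBOP1 cells (SE 0.33), the first called with the block alone (adjusted p 0.0169), as was that in siBOP1 cells at 12 h (-0.82, adjusted p 0.00988). The siFLuc change at 8 h was -0.40 without siFLuc mock number 4, and the siBOP1 change at 12 h -0.53 without siBOP1 IFN number 2. NDC80 was at 7.38, 6.30 and 12.7 TPM in mock and 8.18, 6.61 and 8.49 TPM with IFN at 8 h and 11.9, 8.71 and 10.2 TPM in mock and 9.76, 7.64 and 6.24 TPM with IFN at 12 h with siFLuc. With siBOP1 it was at 9.49, 6.66 and 8.73 TPM in mock and 6.25, 4.35 and 8.07 TPM with IFN at 8 h and 10.2, 10.6 and 4.38 TPM in mock and 7.42, 4.99 and 5.47 TPM with IFN at 12 h. NDC80 was called in no IFN comparison under either fit, with changes from -0.38 to -0.11. NUF2 was called with the block in siBOP1 cells, at -0.46 at 8 h (-0.29 without siBOP1 IFN number 2) and -0.67 at 12 h.

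The 11 kinesins and spindle proteins, the role with the most genes, had 1, 7, 9 and 9 block calls in the 4 comparisons, and 0, 0, 1 and 1 without the block. KIF11 (ENSG00000138160.6, chromosome 10, 92593286 to 92655395, plus strand), the motor that pushes spindle poles apart, was at 25.0, 19.3 and 32.3 TPM in mock and 18.7, 14.8 and 23.5 TPM with IFN at 8 h and 30.9, 28.6 and 35.2 TPM in mock and 21.8, 17.4 and 21.0 TPM with IFN at 12 h in siFLuc cells. Under siBOP1 the gene was at 25.7, 21.1 and 29.5 TPM in mock and 16.6, 13.3 and 21.6 TPM with IFN at 8 h and 31.5, 28.2 and 20.2 TPM in mock and 18.6, 15.4 and 17.1 TPM with IFN at 12 h. Its ranges were apart at 12 h with both siRNAs. KIF11 fell by 0.63 in siFLuc cells at 12 h (SE 0.20, adjusted p 0.0439 in limma), and its change in siBOP1 cells was -0.60 (adjusted p 0.0541). Its siFLuc change at 8 h, called with the block, was -0.40, and -0.22 without siFLuc mock number 4. KIF23 (ENSG00000137807.15, chromosome 15, 69414246 to 69448427, plus strand), a motor of the central spindle, was at 65.1, 61.4 and 43.7 TPM in mock and 34.3, 28.0 and 34.3 TPM with IFN in siBOP1 cells at 12 h, with separate ranges, and fell by 0.78 (SE 0.25, adjusted p 0.0392 in limma).

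KIF20A, a motor of the late spindle, was at 19.9, 14.0 and 30.8 TPM in mock and 13.8, 12.0 and 21.2 TPM with IFN at 8 h and 27.3, 24.6 and 29.4 TPM in mock and 20.5, 13.7 and 16.4 TPM with IFN at 12 h with siFLuc. With siBOP1 it was at 18.2, 13.9 and 24.3 TPM in mock and 12.1, 9.57 and 16.6 TPM with IFN at 8 h and 29.1, 23.6 and 13.2 TPM in mock and 12.8, 9.73 and 13.1 TPM with IFN at 12 h, where mock number 4 lay just above the highest IFN library. Its change was -0.66 in siFLuc and -0.78 in siBOP1 cells at 12 h, called with the block alone (limma adjusted p 0.00987 and 0.0033). NUSAP1, a microtubule-bundling protein, had the smallest mean change of this role. It was at 34.0, 31.4 and 50.7 TPM in mock and 32.9, 31.9 and 45.8 TPM with IFN at 8 h and 57.1, 51.6 and 51.9 TPM in mock and 54.1, 46.5 and 56.0 TPM with IFN at 12 h in siFLuc cells. The siBOP1 libraries had it at 44.2, 33.4 and 66.1 TPM in mock and 45.0, 37.4 and 54.8 TPM with IFN at 8 h and 71.9, 73.3 and 54.5 TPM in mock and 61.2, 44.1 and 66.6 TPM with IFN at 12 h. Its ranges overlapped throughout and its changes ran from -0.22 to -0.03, none called. The others with block calls at 12 h with both siRNAs were KIF2C, KIF4A, PRC1, HMMR and DLGAP5 (-0.78 and -0.74), and KIF18A and ASPM had them with 1 siRNA each.

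The anaphase genes (5) had 0 calls without the block and 0, 1, 3 and 3 with it. CDC20, the activator that turns on the anaphase-promoting complex, was at 56.3, 37.7 and 96.8 TPM in mock and 45.0, 39.5 and 76.5 TPM with IFN at 8 h and 72.2, 69.5 and 114 TPM in mock and 49.4, 39.8 and 68.9 TPM with IFN at 12 h in siFLuc cells. After BOP1 knockdown its level was 52.0, 43.8 and 74.3 TPM in mock and 44.004, 30.8 and 55.7 TPM with IFN at 8 h and 69.4, 61.9 and 52.9 TPM in mock and 35.3, 28.0 and 44.1 TPM with IFN at 12 h. The ranges were apart at 12 h, in siFLuc cells narrowly, and the changes were -0.68 and -0.78 (SE 0.32 each; limma adjusted p 0.171 and 0.108, and 0.00469 and 0.00177 with the block). UBE2C, the ubiquitin-conjugating enzyme that works with the complex, was at 109, 83.4 and 166 TPM in mock and 89.7, 84.4 and 139 TPM with IFN at 8 h and 122, 106 and 143 TPM in mock and 87.5, 65.3 and 73.7 TPM with IFN at 12 h with siFLuc. With siBOP1 it was at 100.1, 90.6 and 159 TPM in mock and 72.2, 65.9 and 117 TPM with IFN at 8 h and 136, 118 and 81.2 TPM in mock and 73.3, 49.8 and 74.1 TPM with IFN at 12 h. Its 12 h ranges were apart as well, with changes of -0.70 and -0.75 (limma adjusted p 0.00164 and 0.000997 with the block).

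ESPL1 (ENSG00000135476.11, chromosome 12, 53268299 to 53293643, plus strand) encodes separase, the protease that cuts cohesin at anaphase, and PTTG1 its inhibitor securin. ESPL1 was at 6.43, 4.69 and 9.23 TPM in mock and 12.2, 5.68 and 9.68 TPM with IFN at 8 h and 10.7, 10.0 and 10.9 TPM in mock and 12.8, 7.44 and 9.13 TPM with IFN at 12 h in siFLuc cells. In siBOP1 cells it was at 9.62, 5.02 and 8.53 TPM in mock and 9.45, 6.47 and 8.58 TPM with IFN at 8 h and 12.2, 10.8 and 6.65 TPM in mock and 9.79, 10.2 and 9.02 TPM with IFN at 12 h. The ranges overlapped in all 4 comparisons, and no change was called (0.37, 0.10, -0.12 and 0.00, SE 0.27). CDCA3, a trigger of mitotic entry that works through ubiquitin ligation, had differences of -0.68 and -0.82 at 12 h, called with the block, and the latter was -0.50 without siBOP1 IFN number 2. PTTG1 was called in none, with changes of -0.41 and -0.40 at 12 h.

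TOP2A (ENSG00000131747.15, chromosome 17, 40388516 to 40417950, minus strand), the topoisomerase that untangles sister chromosomes, gave the lowest adjusted p-values at 12 h with and without the block. In siFLuc cells TOP2A was at 104, 78.1 and 124.2 TPM in mock and 92.7, 65.6 and 102 TPM with IFN at 8 h and 128, 118 and 145 TPM in mock and 90.5, 73.3 and 80.1 TPM with IFN at 12 h. With BOP1 depleted it was at 108, 95.9 and 127 TPM in mock and 76.9, 60.1 and 104 TPM with IFN at 8 h and 145, 126 and 120.4 TPM in mock and 76.7, 62.7 and 79.4 TPM with IFN at 12 h. At 12 h every IFN library lay well below every mock library, whereas at 8 h the ranges overlapped. TOP2A fell by 0.67 in siFLuc cells (SE 0.19, adjusted p 0.0207 in limma) and by 0.83 in siBOP1 cells (SE 0.19, adjusted p 0.00425) at 12 h, with 1.78e-05 and 1.46e-06 under the block. At 8 h its changes were -0.23 (adjusted p 0.518) and -0.48 (adjusted p 0.0984, and 0.000504 with the block), the latter change being -0.29 without siBOP1 IFN number 2.

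MKI67 (ENSG00000148773.14, chromosome 10, 128096659 to 128126385, minus strand), the Ki-67 antigen used to mark dividing cells, was at 31.0, 21.3 and 39.7 TPM in mock and 26.5, 19.3 and 31.6 TPM with IFN at 8 h and 38.7, 33.4 and 45.3 TPM in mock and 29.7, 23.7 and 27.6 TPM with IFN at 12 h with siFLuc. With siBOP1 it was at 36.4, 33.8 and 39.4 TPM in mock and 25.0, 19.2 and 30.7 TPM with IFN at 8 h and 43.1, 37.9 and 24.4 TPM in mock and 23.2, 24.4 and 27.0 TPM with IFN at 12 h. The 12 h ranges were apart in siFLuc cells and overlapped in siBOP1 cells, where mock number 4 lay among the IFN libraries. Its changes at 12 h were -0.51 and -0.45 (SE 0.22 for both). In limma the adjusted p was 0.139 and 0.2 without and 0.0258 and 0.0485 with the block. The siBOP1 change was -0.28 without siBOP1 mock number 1. CDCA2, which brings a phosphatase to chromatin, was called with the block in siFLuc cells at 12 h (-0.49, adjusted p 0.0138). The cytokinesis genes were ANLN, a scaffold of the contractile ring, and ECT2, which activates RhoA there. ANLN was called with the block at 12 h with both siRNAs (-0.56 and -0.52, the former -0.34 without siFLuc mock number 4). ECT2 was called in none (-0.20 to -0.03).

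**Figure D4:**
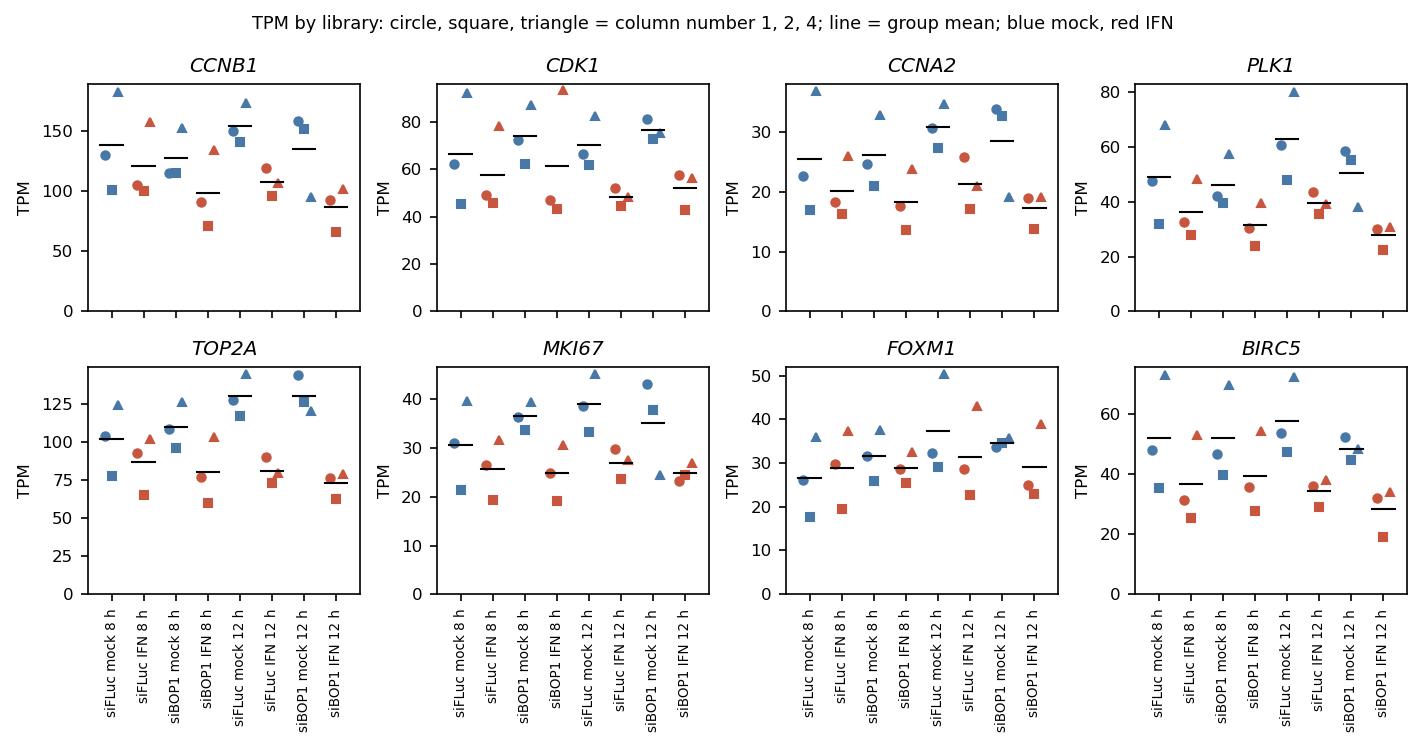
TPM (y axes, from 0) in each of the 24 libraries for 8 genes (panels), by group (x axes), with circle, square and triangle for the column numbers 1, 2 and 4, lines for group means of 3 libraries, blue for mock and red for IFN. At 12 h the mock and IFN libraries of TOP2A, PLK1 and BIRC5 do not overlap with either siRNA, and those of FOXM1 do.

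Over the 4 IFN comparisons, 10 of the 48 genes were called in none with the block, 5 in 1, 14 in 2, 16 in 3 and 3 in all 4. Without it the counts were 37 in none, 7 in 1 and 4 in 2. The 10 were CDC25B, FOXM1, PLK4, BUB1, BUB3, NDC80, NUSAP1, ECT2, PTTG1 and ESPL1. The size of the IFN change differed between library numbers. At 12 h in siBOP1 cells the median difference between same-numbered IFN and mock libraries was -0.69 for number 1, -0.86 for number 2 and -0.01 for number 4, where 26 of 48 genes were below 0. In siFLuc cells at 12 h the 3 medians were -0.40, -0.53 and -0.67. At 8 h siFLuc cells had medians of -0.28, -0.05 and -0.27, and siBOP1 cells of -0.37, -0.50 and -0.35. Thus number 4 gave the lowest median with siFLuc and the highest with siBOP1 at 12 h. Without siFLuc mock number 4 the median of the group changes at 8 h in siFLuc cells was -0.02.

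Counting genes below 0 in all 3 same-numbered differences gave 28 of 48 in siFLuc cells at 8 h (37.6% of all genes tested), 38 in siBOP1 cells at 8 h (42.2%), 43 in siFLuc cells at 12 h (32% of all genes) and 26 in siBOP1 cells at 12 h (33.4%). The plot of differences by number shows number 4 of siBOP1 cells at 12 h apart from the other numbers.

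**Figure D5:**
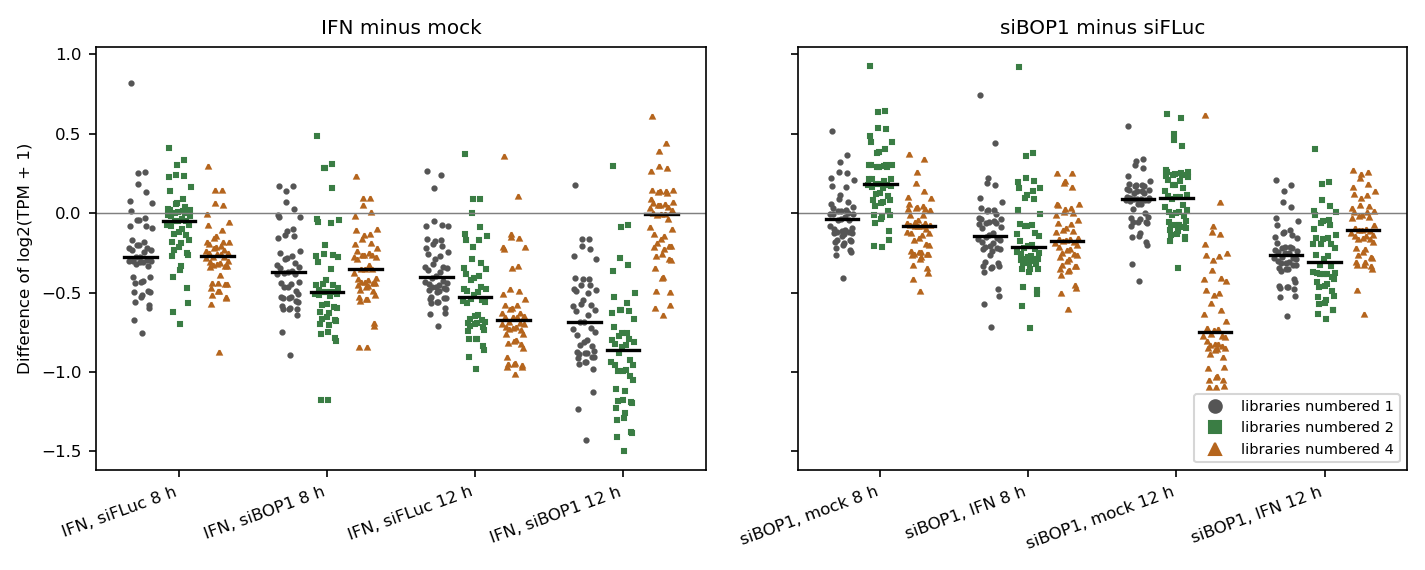
Differences of log2(TPM + 1) of the 48 genes (y axis) between same-numbered libraries, IFN against mock and siBOP1 against siFLuc, in panels, with 1 distribution for each of the numbers 1, 2 and 4 in each comparison (x axis). In siBOP1 cells at 12 h the IFN differences of number 4 centre on -0.01 while those of numbers 1 and 2 centre on -0.69 and -0.86.

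The second comparison asked what BOP1 depletion did to these genes in mock and IFN-treated cells. None of the 48 was called in any of the 4 comparisons in limma without the block, with 1, 2, 2 and 3 at an unadjusted p under 0.05. Of all genes tested 2.16% were called in either direction in mock cells at 8 h, 2% with IFN at 8 h, 1.6% in mock cells at 12 h and 0.66% with IFN at 12 h. The median change was 0.01 in mock cells at 8 h, -0.15 with IFN at 8 h, -0.21 in mock cells at 12 h and -0.21 with IFN at 12 h. The first of these was -0.03 with median-of-ratios rescaling and -0.01 with quantile normalization. The third rested on 1 library, since without siBOP1 mock number 4 it was -0.01. Leaving out 1 library moved the first to between -0.18 and 0.22, the second to between -0.33 and 0.0001 and the fourth to between -0.31 and -0.087. Same-numbered medians of the third, in mock cells at 12 h, were 0.09, 0.10 and -0.75 for numbers 1, 2 and 4.

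With the block, 0, 1, 0 and 1 of the 48 were called lower in the same order, against 2.58%, 3.84%, 3.35% and 1.61% of all genes, and 0 higher. At an unadjusted p under 0.05 the blocked counts were 2, 8, 13 and 14, in either direction. No share of all genes at that threshold is set beside these counts or those without the block. BUB3, the checkpoint protein that holds BUB1 and BUBR1 at kinetochores, was called with IFN at 8 h. It was at 130.1, 126 and 152 TPM with siFLuc and 113, 103 and 99.3 TPM with siBOP1, without overlap. Its change was -0.37 (SE 0.10, limma adjusted p 0.0162 with and 0.0657 without the block). In the other comparisons BUB3 changes were -0.29 in mock cells at 8 h, -0.24 in mock cells at 12 h and -0.23 with IFN at 12 h. TTK, the kinase that starts checkpoint signalling, was called with IFN at 12 h. It was at 17.7, 15.9 and 19.1 TPM with siFLuc and 12.0, 10.6 and 15.01 TPM with siBOP1, again without overlap, and its change was -0.47 (SE 0.19, limma adjusted p 0.0241 with and 0.397 without the block).

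The lowest mean changes over the 4 siRNA comparisons were those of CDC20 (-0.34), KIF20A (-0.31) and BUB1B (-0.29). The highest were those of CDK1 (0.12), SPC25 (0.21) and NUSAP1 (0.25). None of these 6 was called. In mock cells at 12 h the differences for numbers 1, 2 and 4 were -0.06, -0.17 and -1.09 for CDC20. They were 0.09, -0.05 and -1.10 for KIF20A and 0.13, -0.07 and -0.72 for BUB1B, so these means rest in part on number 4 there. With IFN at 8 h every number was below 0 for CDC20, KIF20A and BUB1B. With IFN at 12 h CDC20 libraries of the siRNAs overlapped, as did those of NUSAP1 in all 4 comparisons.

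The third comparison set 12 h against 8 h. No member was called in limma in any of the 4 arms, with 6, 3, 3 and 2 at an unadjusted p under 0.05 in siFLuc mock, siFLuc IFN, siBOP1 mock and siBOP1 IFN cells. Of all genes 0.131%, 3.53%, 0.23% and 2.96% were called in these arms, and no share is given for the unadjusted threshold. In siFLuc mock cells all 48 were above 0 (47 under either rescaling), with a median of 0.36, and the median of all genes was 0.06. The other medians were 0.07 with siFLuc and IFN, 0.14 in siBOP1 mock and -0.02 in siBOP1 IFN cells. That of siFLuc IFN cells turned to -0.03 with median-of-ratios rescaling and -0.06 with quantile normalization. These medians moved with single libraries at 8 h or 12 h. That of siFLuc mock cells was 0.15 without the 8 h library numbered 2 and 0.53 without that numbered 4. That of siFLuc IFN cells was -0.088 and 0.25 without the same numbers at 8 h. In siBOP1 mock cells it was 0.021 without the 12 h library numbered 1 and 0.29 without that numbered 4, and in siBOP1 IFN cells -0.17 without the 8 h number 2 and 0.17 without the 8 h number 4. Same-numbered medians for numbers 1, 2 and 4 were 0.36, 0.53 and 0.12 in siFLuc mock and 0.22, 0.16 and -0.29 in siFLuc IFN cells. In siBOP1 cells they were 0.44, 0.40 and -0.47 in mock and 0.08, 0.05 and -0.18 with IFN. Number 4 was thus the lowest in each arm. In siFLuc mock cells 16 of 48 were below 0 in number 4, where the median of all genes was 0.14. ECT2 had a mean change of 0.49, CDC25C 0.49 and NUSAP1 0.45, the 3 highest. ECT2 was at 71.1, 60.1 and 80.2 TPM in siFLuc mock cells at 8 h and 99.1, 94.9 and 139 TPM at 12 h, and at 67.0, 60.4 and 80.0 against 93.8, 86.6 and 127 TPM with siFLuc and IFN. In siBOP1 cells it was at 65.2, 74.0 and 82.3 against 95.4, 97.5 and 103 TPM in mock and 64.0, 61.2 and 76.3 against 79.0, 75.4 and 107 TPM with IFN. Its ranges at 8 h and 12 h were apart in 3 arms and overlapped in siBOP1 IFN cells, and its lowest limma adjusted p was 0.0723. The 3 lowest mean changes were those of UBE2C (-0.18), CENPA (-0.11) and BIRC5 (-0.09).

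Whether the IFN change itself differed between siRNAs or times was tested as an interaction. No member was called in limma, with or without the block. For siBOP1 against siFLuc the median difference of IFN changes was -0.17 at 8 h, with 1 gene at an unadjusted p under 0.05, and -0.04 at 12 h, with 0. Same-numbered medians at 12 h were -0.30, -0.33 and 0.58 for numbers 1, 2 and 4. Leaving out 1 library gave medians from -0.40 (without siFLuc mock number 4) to 0.014 (without siFLuc mock number 2) at 8 h, and from -0.20 (without siBOP1 mock number 4) to 0.079 (without siBOP1 IFN number 2) at 12 h. For 12 h against 8 h the median was -0.31 in siFLuc cells and -0.18 in siBOP1 cells, with 0 genes at an unadjusted p under 0.05 in both. The former ran from -0.53 without siFLuc mock 8 h number 4 to -0.084 without siFLuc mock 8 h number 2, and the latter from -0.34 without siBOP1 mock 12 h number 4 to -0.0051 without siBOP1 IFN 8 h number 4. With the block 6 and 2 genes were, and the lowest adjusted p was 0.338 and 0.410. A difference in the IFN response between siRNAs or times was therefore not shown for any of the 48 at this number of libraries.

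The column number itself went with these genes at 8 h. Libraries numbered 4 were set against those numbered 1 and 2, within groups. At 8 h 39 of 48 were called higher in number 4 (limma, median 0.56, all 48 above 0), where 8.55% of all genes were. At 12 h 7 were called higher, a smaller share than the 31.3% of all genes, and 1 lower (NDC80, -0.41, limma adjusted p 0.0325). The median there was 0.02 (-0.12 with median-of-ratios rescaling and -0.14 with quantile normalization). Without siBOP1 mock number 4 there were 17 higher at 12 h, and without siFLuc mock number 4 there were 3. FOXM1 was higher at both times (0.49, adjusted p 0.00337, and 0.54, adjusted p 0.00049), as were BIRC5 (0.79 and 0.30) and CDC20 (0.78 and 0.37). INCENP and CENPF were called at neither time. Of the markers of other cell types, COL1A1 was lower in number 4 at 8 h (-1.01, adjusted p 0.000112) and 12 h (-0.52, adjusted p 0.00491), and TP63 at 8 h (-0.66, adjusted p 0.00195). The part of these in the results for number 4 was not tested. What the number stands for is not given in the labels, and its part in the IFN results was not tested beyond the blocked fit and the same-numbered differences.

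Members moved together between libraries of a group. The correlation of deviations from group means had a median of 0.79 over 1128 pairs of members (range -0.09 to 0.99) and 0.06 over all pairs of genes tested, both across 24 libraries that share their column numbers. PLK1 and UBE2C tracked the mean of the other members most closely (r = 0.98 each), and INCENP (0.35), CENPF (0.45) and CDC25B (0.50) least.

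Other genes of the same processes were counted against the shares of all genes called lower, which were 5.07%, 9.11%, 6.43% and 7.58% in siFLuc and siBOP1 cells at 8 h and then at 12 h without the block, and 12.7%, 20.4%, 15.8% and 16.6% with it. Below 0, called or not, were 64.5%, 69.1%, 57.9% and 59.9% of all genes. Of 70 other G2 and mitosis genes, 1, 5, 9 and 8 were called lower without the block (1.43%, 7.14%, 12.9% and 11.4%), under the background at 8 h and above it at 12 h. With the block 8, 26, 40 and 40 were (11.4%, 37.1%, 57.1% and 57.1%). Their medians were -0.17, -0.32, -0.45 and -0.41, and 82.9%, 88.6%, 92.9% and 92.9% of them were below 0. Of 36 replication and S phase genes, 0, 4, 2 and 5 were called lower (0%, 11.1%, 5.56% and 13.9%, with 8 of 36 at an unadjusted p under 0.05 in the first), and 6, 15, 12 and 20 with the block (16.7%, 41.7%, 33.3% and 55.6%). Their medians were -0.17, -0.29, -0.29 and -0.36. Of 16 subunits and regulators of the anaphase-promoting complex 0, 0, 4 and 2 were called lower without the block (3 in each of the first pair at an unadjusted p under 0.05), and of 12 DREAM and MYB-MuvB genes 0, 1, 1 and 2 (1 at an unadjusted p under 0.05 in the first). In lists this short 1 gene is 6.25% or 8.33%, so the counts of 1 are near the background. The 4 of 16 in siFLuc cells at 12 h, and the 2 of 16 and 2 of 12 in siBOP1 cells at 12 h, are above it, on few genes. SPC24, the partner of SPC25 in the NDC80 complex, had changes of -0.52, -0.76, -0.81 and -1.11 in the same order, the last 3 called (limma adjusted p 0.0338, 0.0239 and 0.00214). CEP55 and DEPDC1 were called in siBOP1 cells at 12 h (-0.84 and -0.93, adjusted p 0.0343 and 0.0331).

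A single gene of these lists rose in the unblocked IFN comparisons. MASTL, the Greatwall kinase that holds the phosphatase opposing CDK1 in check, rose in all 4 comparisons, by 1.66 and 1.61 at 8 h and 1.35 and 1.34 at 12 h (SE 0.16 each, limma adjusted p 1.32e-07, 2.03e-07, 2.77e-06 and 3.1e-06). Of 11 genes that restrain CDK1 or G2 exit, 0, 1, 2 and 1 were called lower, with 2 at an unadjusted p under 0.05 in the first, and 54.5%, 63.6%, 54.5% and 54.5% were below 0, no more than of all genes. Among them CDKN1C, the CDK inhibitor p57, was lower in siBOP1 cells at 8 h (-0.77, adjusted p 0.00294) and with both siRNAs at 12 h (-0.82 and -0.96, adjusted p 0.00187 and 0.000369), and higher with siBOP1 in mock cells at 8 h (0.93, adjusted p 0.00463). CDKN1A, the inhibitor p21, was called in none of the IFN comparisons (-0.10 to 0.24) and was higher in the libraries numbered 4 at 8 h (0.32, adjusted p 0.0131) and 12 h (0.54, adjusted p 9.95e-05).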

How the data were processed

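TPM values for 60609 gene rows in 24 libraries were used as the authors deposited them, with no further normalization by default. RNA was extracted with TRIzol and spin columns and made into stranded mRNA libraries, per the labels' protocols. The aligner, quantifier, annotation and genome build are not given in the sources used here, and sequencing depth is unknown because each column sums to 1000000. Of 24 columns 16 were matched to a labelled replicate, and the 8 numbered 4 were assigned to their group alone because the labels number replicates to 3. The 16062 genes that reached 1 TPM in 3 or more libraries entered limma 3.58.1 (R 4.3.3) on the scale log2(TPM + 1) (group means over all 24 libraries, empirical Bayes with a mean-variance trend), with Benjamini-Hochberg adjustment within each comparison and a threshold of 0.05. The script was tested on simulated data. The members and all gene lists were chosen with earlier results of these data known.

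Same-numbered libraries deviated together from their group means in each comparison (r = 0.1154 to 0.5076), so the number was used as a block within each time in a second fit. The same number gave the highest correlation in 21 of 24 cases. The other 3 were number 1 at 12 h: 0.2095 against 0.2283 with another number (IFN, siFLuc), 0.1735 against 0.2548 (IFN, siBOP1) and 0.2104 against 0.2549 (siRNA, with IFN). With numbers 1 and 2 alone r was -0.012 to 0.1559. Genes were named by rule: 8 fixed genes, the 3 highest and 3 lowest mean changes of each family of comparisons, and, of the other lists, up to 5 called genes a family and CDKN1A. Members called with IFN and the remaining examples were described after their values were seen. Alternatives were other pseudocounts, filters, scalings, library subsets and leaving out each library.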

Additional observations from a re-analysis of the deposited data

How the results depend on the processing

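The number of the 48 called lower with IFN is given here for siFLuc and siBOP1 cells at 8 h and then at 12 h (0, 3, 4 and 8 as reported). With the replicate block it was 4, 24, 31 and 34. With libraries numbered 1 and 2 alone it was 1, 11, 10 and 39, and with the block on those 7, 30, 30 and 43. No filter gave 1, 0 and 4 in the last 3. Median-of-ratios rescaling gave 1, 1 and 4 there. Quantile normalization gave 7 and 15 at 12 h. For siFLuc cells at 12 h a filter at a mean of 5 TPM gave 8 and a fit of the compared groups alone 7. Leaving out each library gave 0 to 1, 0 to 7, 0 to 2 and 1 to 19 without the block and 1 to 3, 5 to 16 (14 without siBOP1 mock number 1), 20 to 31 and 20 to 44 with it. The block with median-of-ratios rescaling, added after seeing the data, gave 7 in siBOP1 cells at 8 h. Shares of all genes called were counted for the reported and blocked fits alone. The counts under other settings, in this section and above, therefore have no background beside them.

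For siBOP1 against siFLuc with IFN, quantile normalization gave 1 call at 8 h, the replicate block 1 at 8 h and 1 at 12 h, and the block on libraries 1 and 2 gave 2 and 4. For 12 h against 8 h, libraries numbered 1 and 2 alone gave 2 calls in siFLuc mock, 2 in siFLuc IFN and 2 in siBOP1 mock cells, and quantile normalization 1 in siFLuc IFN cells. No block could be fitted for time. The 12 h count higher in number 4 was 4 with no filter and 3 with either rescaling, and 3 to 17 leaving out each library, against 33 to 39 at 8 h. Leaving out each library gave 0 to 0 calls for siRNA, time and interactions.

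The direction of single genes was checked for the 8 fixed genes, and otherwise only in comparisons where a gene was called with or without the block. Among those checked, the genes whose direction reversed were uncalled with IFN at 8 h. Other uncalled genes named above, such as BUB1, ESPL1, NUSAP1 and ECT2, were not checked with IFN in this way. FOXM1 in siBOP1 cells turned from -0.12 to 0.033 with median-of-ratios rescaling, and leaving out each library gave -0.25 to 0.0033. In siFLuc cells leaving out each library gave -0.53 to 0.012 for CCNA2, -0.38 to 0.047 for CCNB1 and -0.43 to 0.076 for CDK1, the upper values without siFLuc mock number 4, and -0.13 to 0.37 for FOXM1. Leaving out 1 library also turned the sign of some medians over the 48: siBOP1 against siFLuc in mock cells at 8 h (-0.18 to 0.22) and with IFN at 8 h (-0.33 to 0.0001), time in siFLuc IFN (-0.088 to 0.25) and siBOP1 IFN cells (-0.17 to 0.17), the difference of IFN changes between siRNAs at 8 h (-0.40 to 0.014) and 12 h (-0.20 to 0.079), and number 4 at 12 h (-0.047 to 0.19). The cause was not tested.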
